A study of Mus musculus with 7 samples.

Results

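Heterotrimeric G proteins are built from an alpha, a beta and a gamma subunit, and the genes of these subunits were compared between 2 sorted bone marrow populations of wild-type C57Bl/6J mice. Members were taken by symbol (names starting with Gna, Gnb1 to Gnb5, and names starting with Gng) from probe sets that carry a single gene symbol. This gave 32 of the 18193 genes on the array, measured by 79 probe sets. Of these, 31 encode subunits (15 alpha, 5 beta and 11 gamma), and the last, Gnasas1, is an antisense RNA of the Gnas locus that encodes none. The first population lacked CD45 and lineage markers and CD31 and carried CD54 and BP1. It is labelled stromal and has 4 arrays, called stromal 1 to 4. The other was likewise free of CD45 and lineage markers, lacked CD54 and carried CD31. It is labelled endothelial and has 3 arrays, called endothelial 1 to 3. The mice were young adults aged 6 to 12 weeks, and each array received amplified RNA from 1800 to 10000 cells. Whether the arrays of a population stand for different animals is not in the labels, and the p-values cover no more than the spread among these 7 arrays, which may be technical.

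A receptor with 7 membrane passes makes the alpha subunit exchange GDP for GTP, after which alpha and the beta-gamma dimer part and act on separate effectors. The alpha subunits fall into the Gs class, which stimulates adenylyl cyclase, the Gi class, which inhibits it, the Gq class, which activates phospholipase C beta, and the G12/13 class. In bone marrow, parathyroid hormone acts on stromal and osteoblast-lineage cells mainly through Gs, while platelets are activated through Gq, G13, Gi2 and Gz and held back through Gs.

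Of the 32 genes, 29 lay above the filter for dim genes, which asks for at least 3 arrays above their own 40th percentile. In 4 of the 29 the stromal arrays were higher (Gnai1, Gna11, Gnb4 and Gnb5) and in 9 the endothelial arrays were higher (Gnaz, Gng11, Gng12, Gng2, Gnai2, Gnas, Gng4, Gnaq and Gngt2), while 16 passed neither way. Genes were called at a Benjamini-Hochberg adjusted p below 0.05 in limma together with a size of 1 or more on the log2 scale. Gng12 is counted by its brighter probe set, and a second one went the other way. Of all 13995 genes tested, 47.0% were called, 30.9% toward stromal and 16.1% toward endothelial. The members were called in 44.8%, with 13.8% toward stromal and 31.0% toward endothelial, so the total share lay close to that of all genes and the direction leaned to the endothelial arrays. The populations did not overlap in 20 of 29 members (69.0%), against 68.4% of all genes tested. Without overlap, the stromal arrays were above in 5 of the 29 members, against 35.7% of all genes tested. The endothelial arrays were above in 15 of the 29, against 32.7% of all genes tested. The median log2 difference, stromal minus endothelial, was -0.79 over the 29 members and 0.19 over all genes tested. After a second quantile normalization these medians were -0.81 and -0.13, and cyclic loess gave -0.46 and -0.02. The difference also varied with level over all genes. On the deposited scale the median was 0.55 for tested genes with a mean of 9 or more and -0.58 for genes below the filter. Several members had low levels and were not compared with genes of like level, so the part of level in their lean was not tested. All further values come from the deposited scale and include the shift of all genes.

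**Figure D1:**
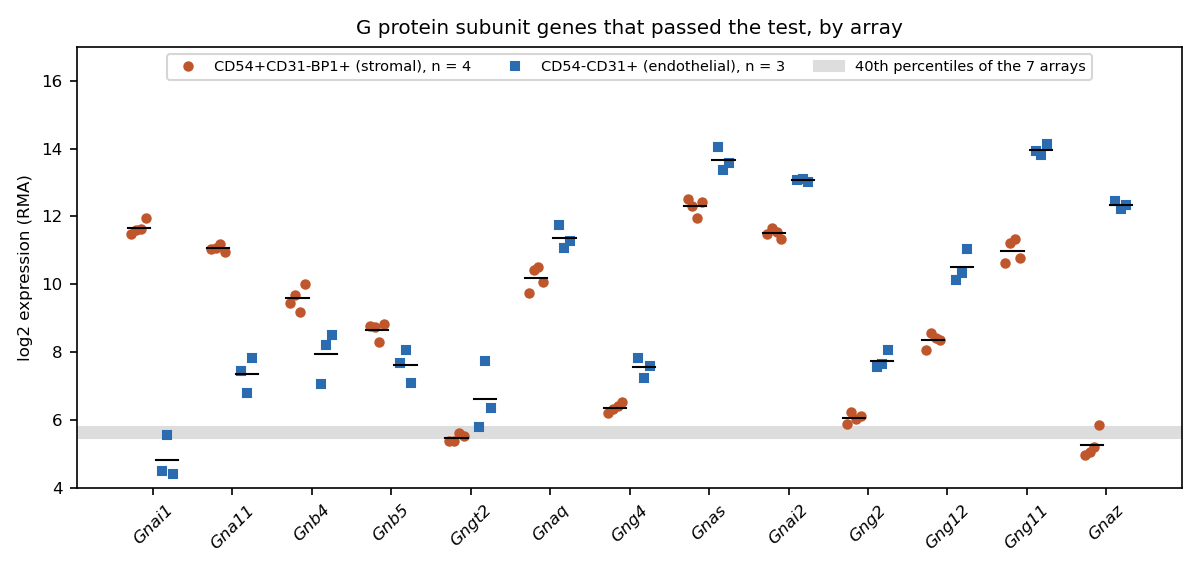
Log2 expression (y axis, RMA values) of the 13 subunit genes that passed the test, on the 4 stromal arrays (circles) and the 3 endothelial arrays (squares), with the mean of each population as a line and the 40th percentiles of the arrays as a grey band. The populations do not overlap in any of the 13 genes, and Gnai1 on the endothelial arrays and Gnaz and Gngt2 on the stromal arrays have means within or below the band.

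Marker lists for each cell type, drawn up with earlier results of these data known, were read on the same arrays. All 12 of 12 reticular stroma genes were called toward stromal, with list means from 13.05 to 13.17 on stromal and 5.74 to 6.92 on the endothelial arrays. Megakaryocyte and platelet genes were higher on the endothelial arrays in 10 of 10, with list means from 6.24 to 8.76 on stromal and 13.50 to 13.86 on the endothelial arrays. Leukocyte genes were higher there in 10 of 12, with list means of 5.74 to 7.48 on stromal and 10.04 to 10.88 on endothelial arrays. Of 12 endothelial genes, 5 passed toward the endothelial arrays (Pecam1, Kdr, Esam, Plvap and Flt1), and Cdh5, Emcn, Tek and Tie1, which define endothelium, lay below the 40th percentile on all 3 endothelial arrays. The endothelial list averaged 5.31 to 5.49 on stromal and 6.87 to 7.12 on endothelial arrays. The B lineage list averaged 6.36 to 7.17 on stromal and 7.42 to 8.36 on endothelial arrays, with 6 of 7 genes called toward endothelial and 1 toward stromal. Monocyte and macrophage genes averaged 6.498 to 7.64 on stromal and 8.71 to 9.81 on endothelial arrays, with 5 of 7 called toward endothelial and 1 toward stromal. Neutrophil precursor genes (6 of 9 called toward endothelial) and erythroid genes (2 of 6) overlapped between the populations. The array label endothelial is therefore used here as a name of the sort. The hybridisation controls lay higher on endothelial 2 and 3 than on the other 5 arrays, and a fit with that split as a block compares endothelial 1 alone with the stromal arrays.

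**Figure D2:**
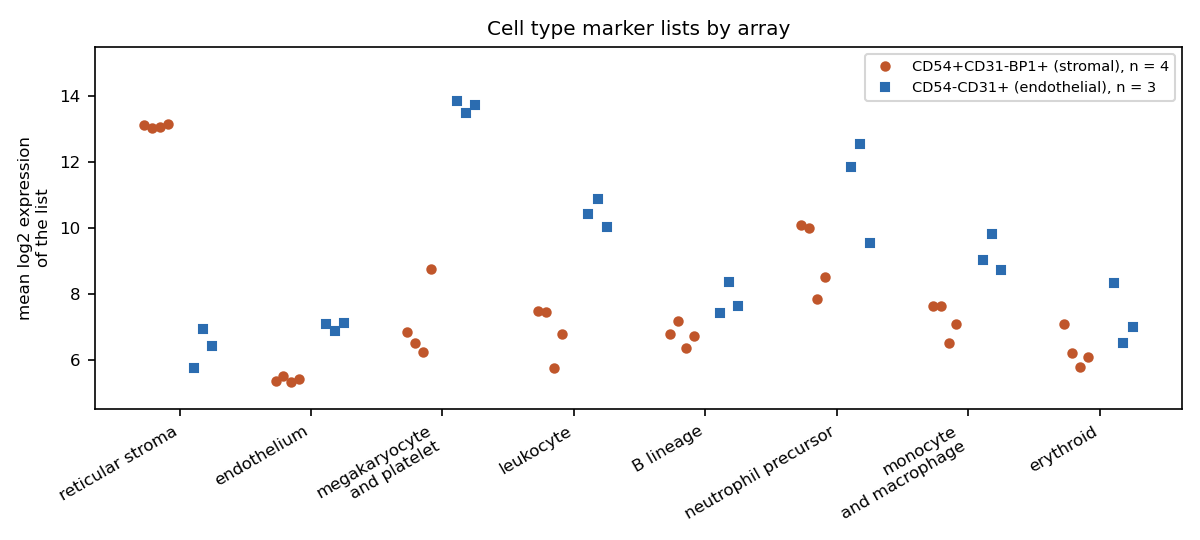
Mean log2 expression of each marker list (y axis) on the 4 stromal arrays (circles) and the 3 endothelial arrays (squares). Reticular stroma genes are high on every stromal array, and megakaryocyte and platelet genes are high on every endothelial array, with stromal 4 the highest of the stromal arrays in that list at 8.76.

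Start-site regions are shown for the called members with the largest difference in each direction among those the RefSeq promoter table lists. These are Gnai1 and Gna11 toward stromal and Gng12, by its brighter probe set, and Gng2 toward endothelial. The other probe set of Gng12 was called toward stromal. The table holds 23 of the 32 members and lists none for Gnai2, Gnal, Gnasas1, Gnat1, Gnaz, Gnb3, Gnb4, Gng11 and Gngt2. Each line gives 250 bases before and 50 after the start, with CG dinucleotides in capitals, and for Gng12 the first of 2 listed starts is shown.
Gnai1 (GRCm38.p6, chr5:18360364-18360663, minus strand): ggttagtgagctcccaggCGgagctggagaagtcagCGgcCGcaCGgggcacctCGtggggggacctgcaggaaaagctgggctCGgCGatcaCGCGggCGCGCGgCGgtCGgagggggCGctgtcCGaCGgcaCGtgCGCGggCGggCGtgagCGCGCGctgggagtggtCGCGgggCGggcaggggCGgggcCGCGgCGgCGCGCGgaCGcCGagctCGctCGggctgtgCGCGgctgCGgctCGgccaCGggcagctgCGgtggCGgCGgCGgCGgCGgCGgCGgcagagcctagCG
Gna11 (GRCm38.p6, chr10:81545113-81545412, minus strand): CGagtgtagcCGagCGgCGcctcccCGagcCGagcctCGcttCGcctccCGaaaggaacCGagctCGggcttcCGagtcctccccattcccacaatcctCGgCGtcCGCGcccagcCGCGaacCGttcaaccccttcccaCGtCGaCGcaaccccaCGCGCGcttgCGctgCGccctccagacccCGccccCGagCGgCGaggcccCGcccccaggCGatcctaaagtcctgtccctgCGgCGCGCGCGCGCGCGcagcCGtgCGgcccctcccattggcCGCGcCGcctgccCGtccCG
Gng12 (GRCm38.p6, chr6:66896147-66896446, plus strand): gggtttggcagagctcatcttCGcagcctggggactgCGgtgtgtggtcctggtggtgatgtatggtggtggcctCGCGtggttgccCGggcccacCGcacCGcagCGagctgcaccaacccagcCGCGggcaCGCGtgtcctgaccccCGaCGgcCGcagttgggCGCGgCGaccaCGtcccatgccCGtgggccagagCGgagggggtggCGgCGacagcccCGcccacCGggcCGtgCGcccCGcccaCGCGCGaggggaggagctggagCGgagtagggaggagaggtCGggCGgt
Gng2 (GRCm38.p6, chr14:19976644-19976943, minus strand): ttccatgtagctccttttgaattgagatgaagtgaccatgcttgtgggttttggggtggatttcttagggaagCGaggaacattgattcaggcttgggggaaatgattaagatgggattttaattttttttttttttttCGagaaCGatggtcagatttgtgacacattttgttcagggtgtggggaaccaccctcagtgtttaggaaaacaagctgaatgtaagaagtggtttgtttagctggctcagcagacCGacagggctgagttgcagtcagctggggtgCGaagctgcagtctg
The Gnai1 and Gna11 windows hold 53 and 48 CG dinucleotides, that of Gng12 holds 34 and that of Gng2 holds 5. The median is 20 over the 23 members and 7 over all genes of the table. The other called members with an entry hold 5 (Gnb5, toward stromal) and 39, 27 and 17 (Gnaq, Gnas and Gng4, toward endothelial) at the first start. The GATA factor motif AGATAA, on either strand, is in none of the 4 windows shown. It is in 2 of the 23 members (Gnat2 and Gnb5) at the first start and in 11.2% of all listed windows. These percentages, unlike the member counts, include the further starts of a gene. The ETS factor motif AGGAAG, whose matches may share letters with AGATAA, is in none of the 4, in 5 of the 23 members at the first start and in 35.4% of all listed windows. The arrays measure transcripts and not start sites, so no link between these windows and the differences was tested.

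Among the Gi class, 3 genes stood far apart in direction. Gnai1, an inhibitory alpha subunit found in many tissues, lay at 11.49, 11.59, 11.64 and 11.94 on stromal 1 to 4, against 4.48, 5.57 and 4.39 on endothelial 1 to 3. All stromal values were high and all endothelial values lay below the 40th percentile of their arrays, so no fold is given for this probe set. Gnai1 thus entered the test through the stromal arrays alone, the population where it is higher. The log2 difference was 6.85 (SE 0.30, limma adjusted p = 7.78e-07). Its other 2 probe sets were also higher on the stromal arrays, by 4.28 and 1.71. The one at 4.28 lay above the 40th percentile on every endothelial array, at 6.11, 5.93 and 6.13, and was 19.4-fold higher on stromal. In bulk RNA, fewer cells that carry a transcript and less of it per cell cannot be told apart, here and below.

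Gnaz encodes the alpha subunit of Gz, a member of the Gi class known from neurons and platelets that is not a target of pertussis toxin. It lay at 4.96, 5.06, 5.20 and 5.84 on stromal 1 to 4, against 12.44, 12.24 and 12.33 on endothelial 1 to 3. The populations were separated by a wide gap, and in this probe set stromal 4 was the highest stromal array, as for the megakaryocyte list. In the second probe set stromal 3 was the highest, at 5.30 against 5.20 on stromal 4. The difference of Gnaz was -7.07 (SE 0.24, adjusted p = 2.61e-07) in the probe set used, and -7.08 in the second. The part of megakaryocyte and platelet RNA in this difference was not tested.

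Gnai2, the main inhibitory alpha subunit of blood cells, was 2.96-fold higher on endothelial arrays. Values were 11.49, 11.67, 11.54 and 11.35 on stromal and 13.09, 13.11 and 13.02 on the endothelial arrays, with no overlap (adjusted p = 8.54e-05). A second probe set gave -1.65. The leukocyte and platelet lists, given above, were higher on the same arrays, and their part was not tested.

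The remaining Gi class genes did not pass. Gnai3, the third of the inhibitory alpha subunits, averaged 10.60 ± 0.17 on stromal arrays and 10.27 ± 0.10 on the endothelial arrays (SD, n = 4 and 3), with a 95% interval of the difference from -0.07 to 0.73, and a second probe set stood at -0.29 (adjusted p = 0.308). Gnao1, the alpha subunit Go of neurons, had a difference of 0.39 (adjusted p = 0.217) in the probe set used and -1.05 (adjusted p = 0.00183) in another, so its direction is not settled. Without stromal 1, where the probe set used was highest at 6.95, the other probe set stands for the gene and the difference is -1.01. Gnat2, the transducin of cones, stood at -0.07 (adjusted p = 0.817). Gnat1, the transducin of rods, lay below the filter, at 5.05 to 5.41 on stromal and 5.77 to 5.82 on the endothelial arrays.

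Members of the Gq class also differed in direction. Gna11 lay at 11.05, 11.08, 11.20 and 10.97 on stromal 1 to 4, against 7.45, 6.80 and 7.83 on endothelial 1 to 3. The stromal values kept within a narrow range far above the endothelial ones. Gna11 was 13.1-fold higher on the stromal arrays (log2 difference 3.72, 95% interval 3.14 to 4.29, adjusted p = 7.15e-06). Its second probe set gave a smaller difference of 1.31.

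Gnaq, the other widespread alpha subunit of this class and the one that mouse platelets depend on, ran the opposite way. It lay at 9.75, 10.43, 10.52 and 10.06 on stromal and 11.76, 11.07 and 11.28 on the endothelial arrays, a 2.27-fold higher level on endothelial arrays (adjusted p = 0.00455). The groups did not overlap, but the gap was narrow. Without endothelial 1 the difference was -0.99 and short of the required size. Of 7 probe sets 6 were tested, 5 were called toward the endothelial arrays (-1.03 to -2.31) and 1 stood at 1.12 without passing (adjusted p = 0.0504).

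Gna15, the Gq class alpha subunit of blood cells, averaged 5.17 ± 0.19 on stromal and 6.12 ± 0.42 on the endothelial arrays. Its difference of -0.95 had an adjusted p of 0.00805 and missed the required size, and it was above the 40th percentile on endothelial arrays alone, so that it entered the test through the population where it is higher. Without stromal 2 it was called, at -1.01. Gna14 lay below the filter. In gene order on the mouse assembly GRCm38.p6, Gna15 and Gna11 are direct neighbours among protein-coding genes on chromosome 10, and so are Gnaq and Gna14 on chromosome 19. In both pairs the neighbours gave different results on these arrays, with differences of -0.95 for Gna15 and 3.72 for Gna11, and of -1.18 for Gnaq while Gna14 stayed dim.

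Gnas, the alpha subunit of Gs and the product of an imprinted locus with several first exons, was 2.56-fold higher on endothelial arrays in the probe set used. It lay at 12.52, 12.30, 11.96 and 12.44 on stromal and 14.04, 13.36 and 13.57 on endothelial arrays (adjusted p = 0.00133). The groups did not overlap in this probe set. It is the brightest of 5 probe sets for the locus, and the others went several ways. Of the 4 tested, 2 were called toward the endothelial arrays (-1.36 and -1.16) and 2 passed neither way (0.44 and -0.41). With the mean of the probe sets the difference was -0.56 (adjusted p = 0.0959), so the call holds for the transcripts that the 2 called probe sets report. Gnal, the Gs class alpha subunit of olfactory neurons, had a difference of -0.79 (adjusted p = 0.00369), short of the required size, and like Gna15 it entered the test through the endothelial arrays alone. Gnasas1 was dim on all arrays, at 4.10 to 4.25 on stromal and 4.09 to 4.69 on the endothelial arrays.

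The G12/13 class passed neither way in the probe sets used. Gna12 averaged 8.25 ± 0.18 on stromal and 8.42 ± 0.35 on the endothelial arrays, with a 95% interval of the difference from -0.67 to 0.33. Its difference depended on the scaling. It was -0.81 after a second quantile normalization (limma adjusted p = 0.0226) and -0.81 after cyclic loess (limma adjusted p = 0.0258), both short of the required size. Gna13, which acts below thrombin and thromboxane receptors in platelets, lay at 10.95, 11.17, 10.88 and 11.53 on stromal and 12.12, 11.47 and 11.26 on the endothelial arrays. These values overlapped (difference -0.49, adjusted p = 0.130). All 7 probe sets of Gna13 had a negative difference and 3 of them were called toward the endothelial arrays, at -1.13, -1.75 and -2.45. With the mean of the 7 probe sets Gna13 was called at -1.28 (adjusted p = 0.00185).

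**Figure D3:**
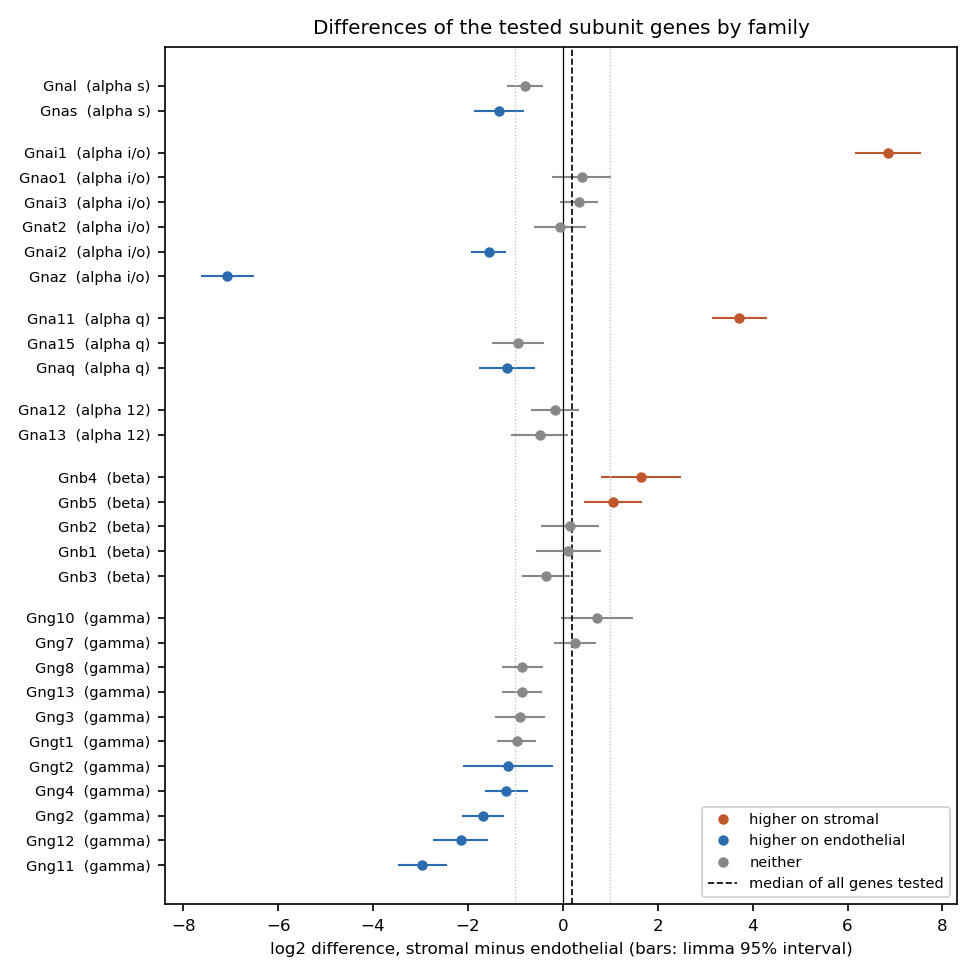
Log2 difference, stromal minus endothelial (x axis), of each of the 29 tested members with its limma 95% interval, grouped by family. Dotted lines mark the required size of 1 and the dashed line the median of all genes tested (0.19). Alpha subunits reach from -7.07 (Gnaz) to 6.85 (Gnai1), while the calls among gamma subunits are all toward the endothelial arrays, Gng12 by its brighter probe set.

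Beta subunits pair with gamma subunits into lasting dimers, and 2 of the 5 were called toward stromal and none toward endothelial. For so few genes this share of 40% is near the 30.9% of all genes. After a second quantile normalization and after cyclic loess 1 of the 5 was called toward stromal. Gnb4 lay at 9.44, 9.68, 9.19 and 10.02 on stromal and 7.07, 8.22 and 8.51 on the endothelial arrays. The groups did not overlap, and endothelial 1 was the lowest of its population. Gnb4 was 3.14-fold higher on the stromal arrays (log2 difference 1.65, adjusted p = 0.00473). Its other 2 probe sets pointed the same way at 0.90 and 0.87 and did not reach the required size. Without stromal 4 the second probe set had the higher mean and gave 1.04, while the first stood at 1.51. With the hybridisation controls as a block Gnb4 stood at 2.52.

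Gnb5 is an atypical beta subunit that partners with RGS proteins of the R7 group (Rgs6, Rgs7, Rgs9 and Rgs11) in place of gamma. It lay at 8.78, 8.75, 8.29 and 8.82 on stromal and 7.68, 8.07 and 7.08 on endothelial arrays (difference 1.05, adjusted p = 0.00879). The groups lay close together without overlap. The call did not survive a second quantile normalization (0.45), cyclic loess (0.42), the mean of its probe sets (0.52), the hybridisation-control block (0.97), or leaving out stromal 4 (0.998) or endothelial 3 (0.78). Among its R7 partners, which were chosen after their values were seen, Rgs7 and Rgs9 were called toward the endothelial arrays (-1.15 and -1.05), Rgs11 stood at -0.98 without the required size, and Rgs6 was below the filter.

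Gnb1 and Gnb2, the most widespread beta subunits, did not pass. Gnb1 averaged 11.65 ± 0.32 on stromal and 11.54 ± 0.56 on the endothelial arrays, and the 95% interval of the difference ran from -0.57 to 0.81. A second probe set of Gnb1 stood at -0.88 (adjusted p = 0.00779), short of the required size, and with the mean of its probe sets Gnb1 stood at -0.48, so its direction is not settled. Gnb2 averaged 11.25 ± 0.45 on stromal and 11.09 ± 0.19 on endothelial arrays, with an interval from -0.46 to 0.77. Both intervals ended short of a size of 1, and the values of the populations overlapped. Gnb3, a beta subunit of cones and taste cells, stood at -0.36 (adjusted p = 0.176).

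Gamma subunits carry a lipid that anchors the dimer to the membrane, and 5 of the 11 were called toward endothelial, Gng12 among them by its brighter probe set, and none toward stromal. For all genes the calls toward stromal outnumbered those toward endothelial, at 30.9% and 16.1%. The median difference of the 11 was -0.97, and 9 of them lay below the median of all genes. Several of the 11 had low levels, and no comparison with genes of like level was made. After a second quantile normalization and after cyclic loess 4 of 11 were called toward the endothelial arrays and again none toward the stromal arrays, with medians of -0.92 and -0.57.

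Gng11, a farnesylated gamma subunit abundant in platelets, lay at 10.64, 11.23, 11.33 and 10.77 on stromal 1 to 4, against 13.93, 13.81 and 14.13 on endothelial 1 to 3. The endothelial values were near the top of the arrays' range and the stromal ones were also well above background. Gng11 was 7.82-fold higher on endothelial arrays (difference -2.97, 95% interval -3.48 to -2.45, adjusted p = 1.40e-05). Its neighbour on chromosome 6 is Gngt1, the gamma subunit of rod transducin, which had low levels and a difference of -0.97. The part of platelet RNA in the Gng11 difference was not tested.

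Gng2, a widespread gamma subunit, lay at 5.89, 6.24, 6.03 and 6.12 on stromal and 7.55, 7.64 and 8.06 on the endothelial arrays, 3.20-fold higher on endothelial arrays (adjusted p = 1.63e-04). The stromal values were close to the level of dim genes. Its other 3 probe sets lay below the filter.

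Gng12 could not be given a direction. The probe set with the higher mean lay at 8.06, 8.56, 8.42 and 8.34 on stromal and 10.12, 10.34 and 11.03 on endothelial arrays (difference -2.15, adjusted p = 1.82e-04). The second lay at 8.77, 9.50, 8.90 and 9.96 on stromal and 7.41, 5.42 and 6.53 on endothelial arrays (difference 2.83, adjusted p over all probe sets = 0.00156). Neither probe set showed overlap between the populations, and the 2 differences are of opposite sign. Gng12 was the single gene among the 20 members with several probe sets that was called in both directions. The mean of the 2 gave 0.34 (adjusted p = 0.300).

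**Figure D4:**
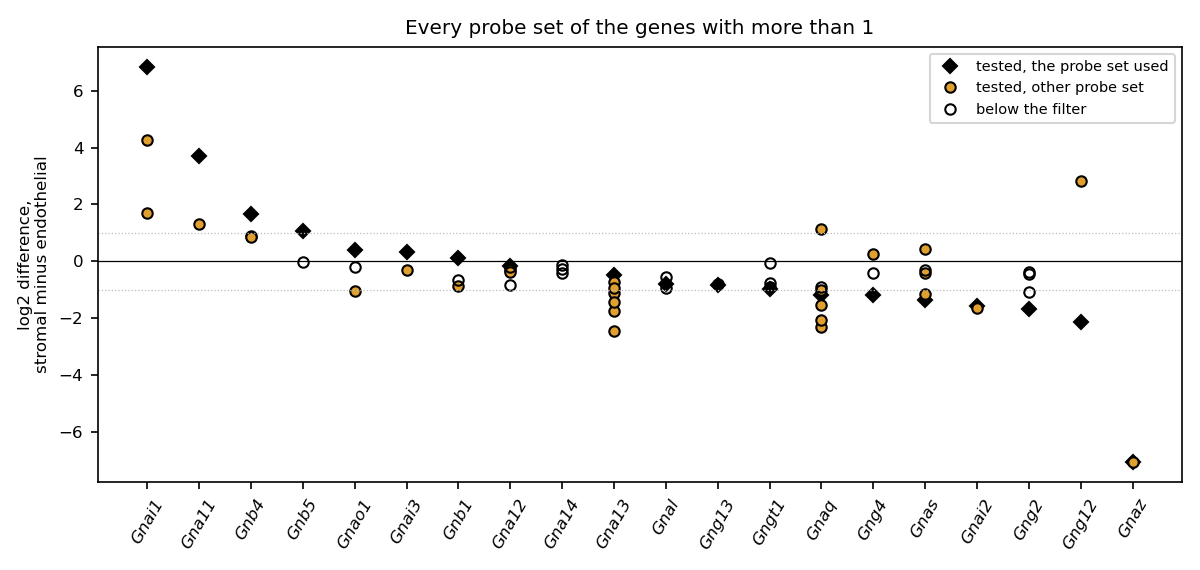
Log2 difference, stromal minus endothelial (y axis), of every probe set of the 20 members that have more than 1. Diamonds are the probe sets used, filled circles other tested ones and open circles those below the filter. Gnaz, Gnai2, Gna11 and Gnai1 keep their direction in every probe set, while those of Gng12 stand at -2.15 and 2.83.

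Gng4, a gamma subunit of neurons, lay at 6.21 to 6.52 on stromal and 7.24 to 7.83 on endothelial arrays (difference -1.19, adjusted p = 0.00119). A second tested probe set stood at 0.26, and it took the place of the first when endothelial 1 or endothelial 3 was left out, which gave 0.20 and 0.23, while the first probe set stood at -1.05 and -1.17. With the mean of its probe sets Gng4 stood at -0.45, short of the required size. Gngt2, the cone gamma subunit that is also found in leukocytes, was carried by 1 array. It lay at 5.36, 5.36, 5.63 and 5.53 on stromal and 5.79, 7.74 and 6.36 on endothelial arrays (difference -1.16, adjusted p = 0.0353). Endothelial 2 was the highest, and it was also the highest in the leukocyte, B lineage and monocyte lists, whose part was not tested. Without endothelial 2 the difference of Gngt2 was -0.60, and without stromal 1, 2, 3 or 4 the adjusted p was 0.0797, 0.0750, 0.0586 and 0.0656. Cyclic loess gave -0.77 and the hybridisation-control block -0.32.

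The other gamma subunits passed neither way. Gng10, which is widely expressed, lay at 10.59, 11.16, 11.24 and 10.88 on stromal and 9.82, 11.04 and 9.87 on endothelial arrays (difference 0.72, adjusted p = 0.0807). The overlap came from endothelial 2, and without that array Gng10 was called toward stromal at 1.12. Gng7 stood at 0.25. Gng3, Gng8, Gng13 and Gngt1, known from neurons, olfactory cells, taste cells and rods, had low levels and differences of -0.97 to -0.85. Their means were 5.41 to 5.85 on stromal and 6.31 to 6.71 on endothelial arrays. Together with Gna15 and Gnal these are 6 members whose adjusted p passed while the size did not. All 6 lay above the filter, while the 4198 genes below it had a median difference of -0.58. The part of level in the differences of the 6 members was not tested.

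The regulators and partners of G proteins were read from lists that carry no member. Among 12 chaperones and modulators tested, 3 were higher on stromal and 3 on endothelial arrays (list median 0.67). That is 25% each way, against 30.9% toward stromal and 16.1% toward endothelial for all genes, and the total lies near that of all genes. Ric8b, the chaperone of Gs class alpha subunits, was higher on the stromal arrays by 1.62, at 8.72 ± 0.15 on stromal and 7.09 ± 0.27 on endothelial arrays (SD, n = 4 and 3). Ric8a, the chaperone of the other alpha classes, averaged 10.42 ± 0.25 on stromal and 12.16 ± 0.09 on endothelial arrays, 3.36-fold higher in endothelial (adjusted p = 1.22e-04). Gpsm1, which binds Gi class subunits in their GDP form, was higher on the stromal arrays by 2.53, and Ccdc88a, which encodes the Gi modulator girdin, by 1.26. Unc119, a carrier of lipid-bearing alpha subunits, stood at -3.15.

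RGS proteins speed the return of alpha to its GDP form, and 5 of 15 tested were higher on stromal and 6 on endothelial arrays (list median -0.05), the last count being 3 without endothelial 1. The share toward stromal, 33.3%, is near the 30.9% of all genes, and that toward endothelial is 40%, against 16.1% of all genes. Rgs18 and Rgs10 stood at -8.40 and -6.56. Rgs1 stood at -1.78 (adjusted p = 0.0220) with overlap between the populations, stromal 1 at 6.31 being above endothelial 1 at 6.25. Endothelial 2 was the highest at 8.97, and without it Rgs1 stood at -1.08. Without stromal 3 or stromal 4 Rgs1 was not called (adjusted p = 0.0527 and 0.0545). Rgs3 and Rgs5 were higher on the stromal arrays by 3.08 and 2.28. Receptor kinases and arrestins, which silence active receptors, passed toward the endothelial arrays in 3 of 6 and toward stromal in none (list median -1.68), or in 1 without stromal 1. For this short list the share toward endothelial is 50%, against 16.1% of all genes, while 30.9% of all genes were called toward stromal. Arrb2 was 23.4-fold, Arrb1 7.88-fold and Grk6 5.39-fold higher on endothelial arrays.

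Effectors of alpha subunits went both ways, with 7 of 20 higher on stromal and 6 on endothelial arrays (list median -0.12). The share toward stromal, 35%, is near the 30.9% of all genes, and that toward endothelial is 30%, against 16.1%. Higher on the stromal arrays were the guanine exchange factor Trio, an effector of Gq class subunits, by 4.13, and the adenylyl cyclases Adcy3 and Adcy2 by 4.03 and 3.92. Without stromal 4 another probe set stood for Trio, at 2.75. Adcy2 lay at 10.69 ± 0.16 on stromal and 6.78 ± 0.14 on endothelial arrays (adjusted p = 8.16e-07). Higher on the endothelial arrays were the phospholipase Plcb4, at -3.26, and the cyclase Adcy7, at -2.36. Adenylyl cyclases of both directions thus stood within the same list. Without endothelial 2 the count toward stromal was 4.

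Effectors of beta-gamma dimers were higher on the endothelial arrays in 8 of 12 tested and on the stromal arrays in 1, Plekhg2 at 2.41 (list median -1.18). That is 66.7% toward endothelial, against 16.1% of all genes, and 8.3% toward stromal, against 30.9%. Without endothelial 1 or without endothelial 2 the count toward endothelial was 5. Pik3cb and Pik3cg, catalytic subunits of the phosphoinositide 3-kinases that dimers activate, stood at -4.89 and -2.003. The potassium channel gene Kcnj5 stood at -4.11 with a wide spread, at 4.54 to 4.73 on stromal arrays and 9.32, 10.46 and 6.41 on endothelial 1 to 3.

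Receptors listed for platelets were higher on the endothelial arrays in 7 of 9 and on the stromal arrays in none (list median -2.65). That is 77.8% toward endothelial, against 16.1% of all genes. P2ry12, the ADP receptor that signals through Gi2, lay at 3.81 ± 0.24 on stromal and 10.12 ± 0.46 on endothelial arrays (adjusted p = 5.06e-07). Adgrg1 stood at -4.91 and the thrombin receptor gene F2rl2 at -4.36. Of receptors listed for stroma, 8 of 12 were called toward stromal and none toward endothelial (list median 2.42), or 1 toward endothelial without stromal 4, endothelial 1 or endothelial 2. That is 66.7% toward stromal, against 30.9% of all genes. S1pr3 and S1pr1, receptors of sphingosine 1-phosphate, were higher by 7.63 and 5.56, and Pth1r, the receptor of parathyroid hormone, by 5.06. Both receptor lists were drawn up with earlier results of these arrays known and are no independent evidence of direction.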

How the data were processed

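The data are 7 whole-genome mouse arrays of Affymetrix, 4 of CD54+CD31-BP1+ and 3 of CD54-CD31+ cells. The deposited values are log2 expression values made by the authors with Affymetrix Expression Console 1.1 and RMA, per the submitters' processing notes. Which arrays were normalized together is not given in the sources used here. No depth applies to arrays, and their number limits the precision. Symbols came from a platform annotation of 2016. Of 45101 probe sets, 34945 had 1 symbol. A gene was represented by its probe set of highest mean over all arrays and entered the test with 3 or more arrays over the array's 40th percentile. Tests used limma 3.58.1 in R 4.3.3 (lmFit and eBayes, no covariates), stromal minus endothelial, with Benjamini-Hochberg adjustment over 13995 genes. Probe sets were adjusted over all tested probe sets with 1 symbol. No fold is given where a population's mean lay below the 40th percentile. The procedure was tested on simulated data. All tested members were named, and from each list up to 3 called genes in its main and 2 in the other direction, by size. Members, lists, rules and alternatives were chosen with earlier results of these data known, and the look at each further probe set after seeing the data. Promoter windows came from RefSeq (GRCm38.p6). Gene positions other than promoters were used for gene order alone. Alternatives varied the dim-gene filter, the probe set rule, the scaling, the moderation, array weights, the call rule and blocks, and left out arrays.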

Additional observations from a re-analysis of the deposited data

Results flagged for a closer look

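Gnb5 lay at 8.29 on stromal 3, against 8.75 to 8.82 on the other stromal arrays, so that this array stood apart from its group by most of the group's range. The value is still above all 3 endothelial arrays, at 7.08 to 8.07, and without stromal 3 the difference of Gnb5 was 1.17. By chance about 1 in 20 groups shows such a gap, and 29 groups of 4 stromal arrays were examined.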

How the results depend on the processing

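Of the 13 called members, 6 (Gnai1, Gna11, Gnaz, Gnai2, Gng11 and Gng2) kept their direction and their call in all alternatives that tested them, apart from single further probe sets, which were looked at after seeing the data. The size of Gnai1 was 4.28 without suffixed probe sets and that of Gna11 2.51 with the mean of its probe sets. The counts of called members were 4 toward stromal and 9 toward endothelial. They were 2 and 5 with treat at a log2 difference of 1, 15 toward endothelial with adjusted p alone, and 8 and 20 of 57 probe sets with a test per probe set. Leaving out each array in turn gave 3 to 5 and 8 to 10. Over all genes, 4319 and 2252 were called, 2220 and 855 with treat, 4412 toward endothelial with adjusted p alone, 6943 and 3674 of 24519 probe sets, and 3980 to 4825 and 1818 to 2308 with an array left out. Of all calls 65.7% were toward stromal, 51.5% after a second quantile normalization and 57.8% after cyclic loess. Whether the replicate numbers pair the arrays could not be settled, because the labels do not say and correlations this weak cannot decide it. Same-numbered arrays correlated in their deviations from the group means at -0.0021, 0.035 and 0.117. Endothelial 2 and 3 correlated best with the stromal array of their own number, and endothelial 1 with stromal 4 (0.058). With a replicate block 3 and 8 members and 4176 and 2278 genes were called. The members lost were Gnb5 (0.998, adjusted p = 0.0199) and Gngt2 (-1.18, adjusted p = 0.0589). No endothelial array carries the number 4, so in a given probe set this block gives the same difference as leaving out stromal 4. It is no separate check of the sizes.

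The sign turned in 4 genes that were called in at least 1 of the 2 settings compared (Gnao1, Gnas, Gng12 and Gng4). It also turned, with no call in either setting, in Gnb1 (-0.48 with the mean of its probe sets, -0.47 with the hybridisation-control block), Gnat2 (0.43 with cyclic loess), Gnai3 (-0.05 with cyclic loess), Gnb2 (-0.10 with cyclic loess) and Gna12 (0.01 without endothelial 3), among others for these genes. Gnao1 stood at -1.05 without suffixed probe sets, -1.07 after a second quantile normalization and -1.01 without stromal 1 (-1.01 to 0.57 over arrays left out). Gnas stood at 0.44 without suffixed probe sets and Gng12 at 0.34 with the mean of its probe sets. Gng4 ranged from -1.35 to 0.23 over arrays left out, with 0.20 without endothelial 1. Single further probe sets of opposite sign stood at -1.05 for Gnao1, 1.12 for Gnaq, 0.44 for Gnas, 2.83 for Gng12 and 0.26 for Gng4, and, with no call on either side or below the filter, at -0.88 and -0.67 for Gnb1, -0.29 for Gnai3, -0.20 for Gnao1 and -0.02 for Gnb5.

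Among the lists, alpha effectors called toward stromal (7 as reported) numbered 3 after a second quantile normalization, after cyclic loess and with treat, and 4 without stromal 4 and endothelial 2 (4 to 6 over arrays left out), and toward endothelial 3 with treat (5 to 7). Beta-gamma effectors toward endothelial (8) numbered 3 with treat and 5 without stromal 4 and endothelial 2 (5 to 8). Chaperones toward stromal (3) numbered 1 with the mean of probe sets and 6 with adjusted p alone, and toward endothelial 1 with the mean and without suffixed probe sets. Platelet receptors toward endothelial (7) numbered 4 without stromal 4 and endothelial 2 (5 to 7). Receptor kinases and arrestins toward stromal (0) numbered 1 after both normalizations, with array weights, with adjusted p alone and without stromal 4 and endothelial 2 (0 to 1). RGS genes toward stromal (5) numbered 3 with the mean, with treat and with the hybridisation-control block, and toward endothelial (6) 2 with treat (3 to 6). Stromal receptors toward endothelial (0) numbered 2 after a second quantile normalization and with adjusted p alone, and 1 after cyclic loess, with the replicate block and without stromal 4 and endothelial 2 (0 to 1). With an endothelial array left out, Kcnj5, P2ry12, Pik3cb and Rgs18, which were above the 40th percentile on endothelial arrays alone, had too few arrays to be tested. The cause of the other changes was not tested.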

Other observations

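Gng5, a widespread gamma subunit, is read by 3 probe sets that carry the symbols of Gng5 and of its processed copy Gng5-ps, and so falls outside the rule. The brightest lay at 12.46, 12.59, 13.06 and 12.16 on stromal 1 to 4 and at 12.88, 12.63 and 13.45 on endothelial 1 to 3, and these values overlapped. The second averaged 11.57 ± 0.51 on stromal and 12.29 ± 0.29 on the endothelial arrays (SD, n = 4 and 3), and the third was dim at 4.41 ± 0.55 and 3.78 ± 0.14. Which of the copies these probe sets report was not tested.

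Subunit genes that neighbour each other in the order of protein-coding genes of GRCm38.p6 included Gnat2 and Gnai3 on chromosome 3, and Gnai2 and Gnat1 on chromosome 9 with 1 gene between them. In both pairs the transducin gene had low levels, at 5.54 ± 0.15 on stromal and 5.60 ± 0.46 on the endothelial arrays for Gnat2, and at 5.23 ± 0.18 and 5.79 ± 0.03 for Gnat1.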
